A study of Sus scrofa with 15 samples.

Results

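The genes described here encode the enzymes that build, sulfate and supply the glycosaminoglycan chains of cartilage. They were chosen by symbol: the chondroitin, xylosyl, glucuronyl and galactosyl transferase families, the heparan sulfate polymerases and sulfotransferases, the hyaluronan synthases, and UGDH, DSE, FAM20B and UST. Of the 25322 genes in the table, 44 carried such a symbol, and the rule reads symbols alone. A gene was tested when its level exceeded 5 in at least 3 of the 15 libraries, which 9963 genes did, 30 of the 44 among them.

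Glycosaminoglycans are long sugar chains carried by proteoglycans such as aggrecan, where their negative sulfate and carboxyl groups hold the water that lets cartilage bear load. Synthesis starts with a short linker built on a serine of the core protein, and the next sugar added commits the chain to chondroitin and dermatan sulfate or to heparan sulfate. Polymerases extend the chain, sulfotransferases and epimerases modify it, and keratan sulfate and hyaluronan are made by separate routes.

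The study sorted chondrocytes from the knee cartilage of adult pigs on 2 surface proteins, the integrin subunit ITGA4 and the receptor BMPR1B, and sequenced RNA from each population. Cells with both proteins (ITGA4+BMPR1B+), with only the first (ITGA4+BMPR1B-), with only the second (ITGA4-BMPR1B+) and with neither (ITGA4-BMPR1B-) came from pigs 2, 5 and 6, giving 12 chondrocyte libraries. CD146+ cells, which the study sorted from synovium as CD45-CD31-CD146+ pericytes, were taken from pigs 3, 4 and 5, giving 3 libraries. The animals are untreated, the legs came from a farm supplier, and only pig 5 gave both tissues, so tissue and sort cannot be told apart from most of the animal differences.

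Levels are the deposited signal with ribosomal, other structural and mitochondrial transcripts removed, scaled by median-ratio factors so that the mean library held 1000000. Messenger transcripts made up 2.03% to 22.1% of the signal, with 2.03% to 4.15% in the 4 pig 2 chondrocyte libraries, 11.7% to 22.1% in the 8 from pigs 5 and 6, and 2.95% to 3.78% in the CD146+ libraries. COL2A1, the main cartilage collagen, ran from 9117 to 69924 in chondrocytes and from 15.7 to 19.1 in CD146+ cells. Transcripts of the 2 sort markers were too low to check the chondrocyte labels, with BMPR1B at 0.153 or less and ITGA4 at 1.40 or less in every library. MCAM, which encodes CD146, was at 0.615 to 9.92 in chondrocytes and 265 to 731 in CD146+ cells. The CD146+ libraries also carried endothelial transcripts although their sort excluded CD31+ cells: PECAM1, which encodes CD31, was at 0.798 to 13.9 in chondrocytes and 343 to 622 in CD146+ cells, and the 14 endothelial genes found summed to 21.3 to 187 in chondrocytes and 4031 to 6611 in CD146+ cells. The 12 pericyte genes summed to 540 to 1645 in chondrocytes and 544 to 960 in CD146+ cells, so their sum did not set the CD146+ libraries apart. The list includes CSPG4, which was higher in chondrocytes, so the sum says little about its other genes. MYH11 and DES were at 0 in every ITGA4-BMPR1B+ library, and DES also in every ITGA4+BMPR1B+ library. No pericyte gene was at 0 throughout the CD146+ libraries. The 9 fibroblast genes found summed to 1463 to 3763 in chondrocytes and 41.4 to 271 in CD146+ cells, and the 10 macrophage genes to 93.2 to 577 in chondrocytes and 48.1 to 84.2 in CD146+ cells. Of that list, CSF1R, CD163, TYROBP, C1QA and C1QB were at 0 in every ITGA4+BMPR1B+ library. In every ITGA4-BMPR1B+ library CD163, TYROBP, C1QA, C1QB, C1QC, MRC1 and PTPRC were at 0. Only CD163 was at 0 throughout the ITGA4-BMPR1B- libraries and throughout the CD146+ libraries, and no gene of the list throughout the ITGA4+BMPR1B- libraries. The part of endothelial cells, fibroblasts or macrophages in any difference from CD146+ cells below was not tested, and in sorted bulk samples fewer cells of a type and less RNA per cell cannot be told apart.

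Chondrocytes carried more transcript of 14 of the 30 tested enzymes than CD146+ cells, and less of 4 that included both members of the keratan sulfate group. With the 4 populations of a pig averaged (3 pig means against 3 CD146+ libraries), these 18 members passed an adjusted p of 0.05, and the other 12 did not. Among all genes tested 17% were higher and 17.3% lower, 34.3% in either direction. The median log2 difference was 0.93 over the members and -0.02 over all genes. All adjusted p-values are from limma with Benjamini-Hochberg adjustment over all genes tested, and differences are on the log2(level + 1) scale, which understates the change of low genes. Of the 30, 12 lay above and 4 below the CD146+ range in every chondrocyte library, against 30.4% of all genes with no overlap in either direction. Over all genes under the same filter, 1473 lay above and 1559 below. The filter can be met by chondrocytes alone, as by EXTL1, EXT2, EXTL2, HS3ST3B1 and CHST10, whose CD146+ levels were all under 5. A gene high only in CD146+ cells needs all 3 of their libraries, so the higher and lower counts were not filtered alike. When libraries were scaled to equal totals instead, the median difference over all genes was -0.44, and 8 members were higher and 7 lower of 31 tested, against 11.2% and 32.7% of all genes. On the signal as deposited, with the structural RNA left in, 5 were higher and 2 lower of 24 tested, against 8.33% and 1.48% of all genes. That scale ended the calls of B3GAT3, FAM20B, XYLT2, CSGALNACT2, CHST14, B4GALT5 and UGDH, at adjusted p-values from 0.0647 to 0.437.

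**Figure D1:**
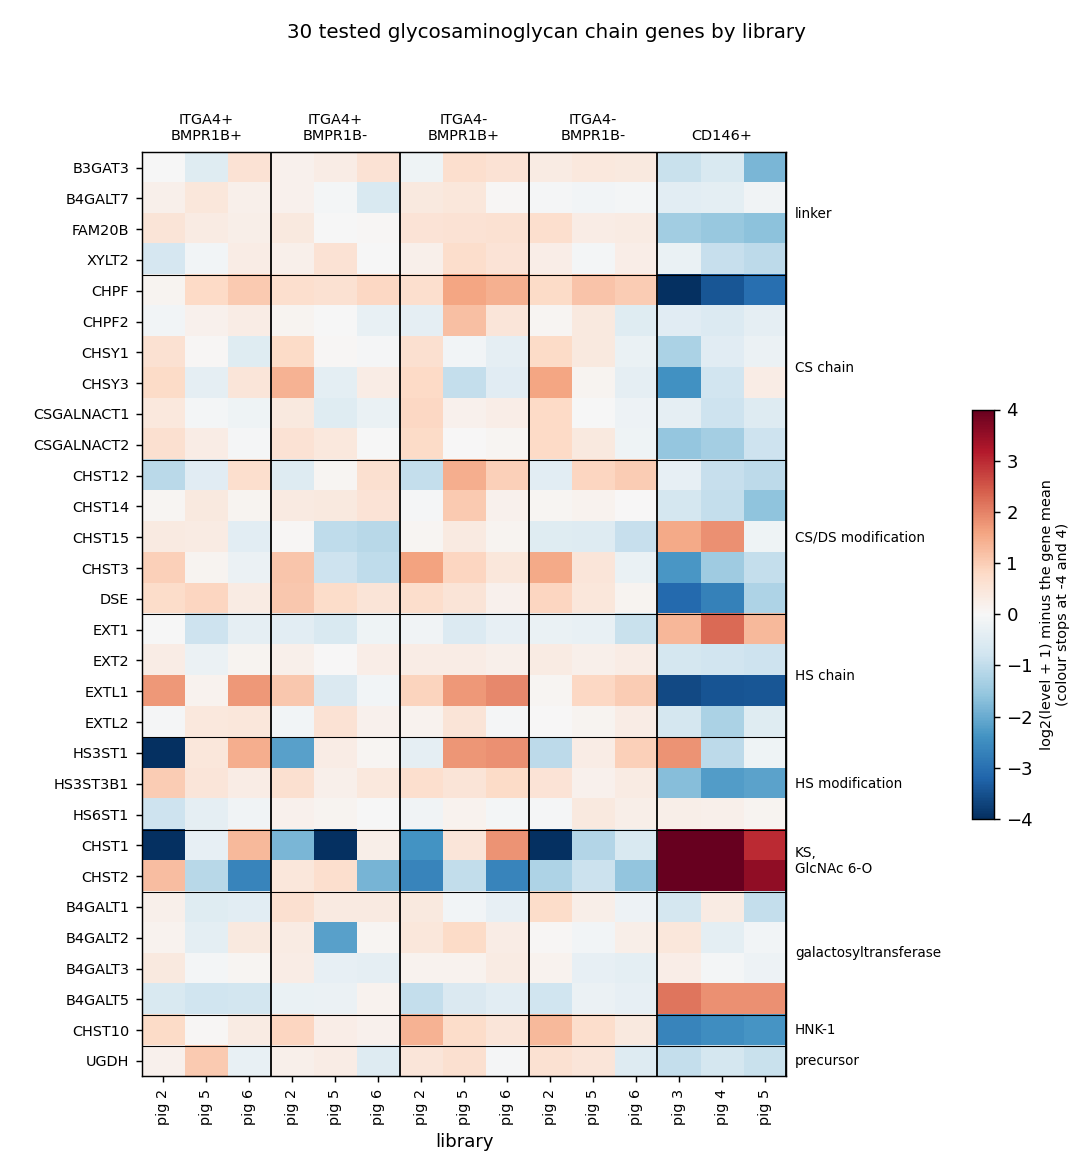
Level of the 30 tested members in each of the 15 libraries, as log2(level + 1) minus the mean of the gene over libraries, with genes grouped by role and libraries by population and pig. Red is above and blue below the gene's mean, and the strongest contrast lies between the 12 chondrocyte columns and the 3 CD146+ columns.

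All 4 members of the linker region were tested, and 3 were higher in chondrocytes. They are not every enzyme of the linker: XYLT1 carries no symbol of the list and is given at the end. FAM20B, the kinase that phosphorylates the first xylose, ranged from 17.3 through a median of 23.0 to 28.3 in the 12 chondrocyte libraries, against 6.08, 5.48 and 4.94 in the CD146+ libraries of pigs 3, 4 and 5. The ranges did not meet, and the difference was 1.90 on the log2 scale (SE 0.17, adjusted p = 0.000604). B3GAT3, which adds the glucuronic acid that completes the linker, was at 17.2 to 40.2 in chondrocytes and 6.22 to 15.7 in CD146+ cells (log2 difference 1.39, SE 0.34, adjusted p = 0.0223). XYLT2, a xylosyltransferase that starts the linker, was at 5.82 to 16.5 in chondrocytes and 4.24 to 7.99 in CD146+ cells, with overlap (0.93, SE 0.26, adjusted p = 0.0339). B4GALT7, which adds the first galactose, had 14.0 to 30.7 in chondrocytes and 16.2 to 19.9 in CD146+ cells and did not pass (0.41, SE 0.18, adjusted p = 0.128). The B3GAT3 call was lost without pig 2, 5 or 6 (adjusted p up to 0.0814), and that of XYLT2 without pig 2, 4, 5 or 6 or without the CD146+ library of pig 4 or 5 (up to 0.205). XYLT2 also missed the threshold when all genes above 0 in 3 libraries were tested (the open filter, 0.0508). With equal totals B3GAT3 and XYLT2 had adjusted p-values of 0.0522 and 0.125, while FAM20B kept its call there and without any 1 pig.

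The chondroitin polymerase group held CHPF, which with EXTL1 of the heparan sulfate group had the largest positive differences, and the order of these 2 is within their SEs. CHPF, the chondroitin polymerizing factor (ENSSSCG00000021610), was at 67.2, 109.8 and 129 in the ITGA4+BMPR1B+ libraries of pigs 2, 5 and 6, at 99.6, 95.7 and 113 in ITGA4+BMPR1B-, at 101, 187 and 169 in ITGA4-BMPR1B+, and at 107, 140.0 and 128 in ITGA4-BMPR1B-. Against these, the CD146+ libraries had 2.54, 4.92 and 6.80. The lowest chondrocyte library was far above the highest CD146+ library, and the difference was 4.43 (SE 0.33, adjusted p = 0.000277). CSGALNACT2, which adds the first N-acetylgalactosamine and so opens a chondroitin chain, was at 21.3 to 42.7 in chondrocytes and 7.60 to 13.3 in CD146+ cells (1.56, SE 0.28, adjusted p = 0.00744). The other 4 of the 6 did not pass: CHPF2, CHSY1, CHSY3 and CSGALNACT1 had positive differences of 0.58 to 1.20 with adjusted p-values from 0.0633 to 0.249. CHSY1 and CHSY3 encode chondroitin synthases, and CHSY3 was at 13.9 to 84.9 in chondrocytes against 4.30, 15.8 and 34.5 in CD146+ cells, so its groups overlapped and its SE was 0.74.

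Of the 8 genes that modify chondroitin and dermatan sulfate, 5 were tested and 3 were higher in chondrocytes. DSE, the epimerase that turns glucuronic into iduronic acid and so makes dermatan sulfate, was at 21.9, 31.5 and 43.7 (lowest, median and highest) in chondrocytes, against 1.46, 2.24 and 8.10 in CD146+ cells. The ranges did not meet, and the difference was 2.94 (SE 0.49, adjusted p = 0.00569). CHST14, the 4-O-sulfotransferase of dermatan sulfate, was at 122 to 262 in chondrocytes and 40.3 to 76.4 in CD146+ cells (1.37, SE 0.27, adjusted p = 0.0110). CHST3, the main chondroitin 6-O-sulfotransferase, was at 62.6, 176 and 386 in chondrocytes and at 24.3, 46.6 and 65.5 in CD146+ cells, with the ITGA4+BMPR1B- library of pig 6 below the CD146+ library of pig 5 (1.96, SE 0.51, adjusted p = 0.0270). CHST12, a chondroitin 4-O-sulfotransferase, did not pass (0.94, SE 0.44, adjusted p = 0.142). With pig as a block its value was 1.52, a comparison that uses the CD146+ library of pig 5 alone. Pigs 3 and 4 gave no chondrocytes, so their CD146+ libraries drop out of that fit. CHST15, which adds a second sulfate to 4-sulfated chondroitin, was at 4.76 to 14.95 in chondrocytes, against 34.5 and 43.1 in the CD146+ libraries of pigs 3 and 4 but 9.96 in that of pig 5, and did not pass (-1.32, SE 0.53, adjusted p = 0.0986). CHST14 lost its call without pig 5 (adjusted p = 0.0525). CHST3 lost it without pig 2 or 5, without the CD146+ library of pig 3 or 4 (the only library of each), and with equal totals (adjusted p up to 0.0804 and 0.0527).

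**Figure D2:**
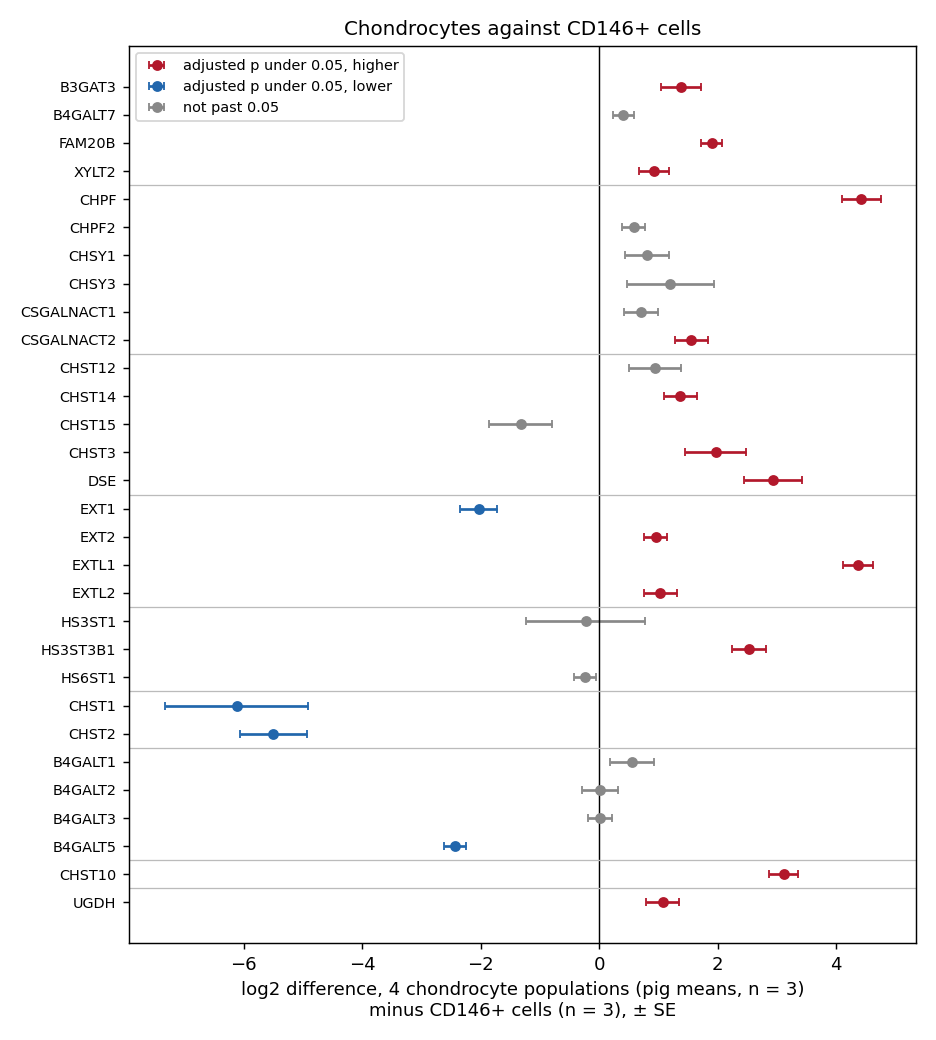
Log2 difference of each tested member, chondrocytes (3 pig means) minus CD146+ cells (3 libraries), with bars of 1 SE and genes in the order of their roles. The 14 red points are higher, the 4 blue points lower and the 12 grey points not past an adjusted p of 0.05; CHST1 and CHST2 lie farthest to the left, CHPF and EXTL1 farthest to the right.

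In the heparan sulfate chain group all 4 tested genes passed, and they split. EXT1, one of the paired polymerases of heparan sulfate, was at 2.50, 4.05 and 5.40 (lowest, median and highest) in chondrocytes, against 14.996, 30.1 and 14.7 in CD146+ cells. Every chondrocyte library was below every CD146+ library (-2.03, SE 0.31, adjusted p = 0.00398). EXT2, its partner in the polymerase complex, was at 4.88, 7.06 and 7.59 in chondrocytes and 3.23, 3.01 and 2.86 in CD146+ cells, again with no overlap but in the opposite direction (0.95, SE 0.20, adjusted p = 0.0119). The EXT2 call was lost without pig 5 (adjusted p = 0.0796) and with equal totals (0.0572), while EXT1 kept its call in both.

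EXTL1, an exostosin-like N-acetylglucosaminyltransferase (ENSSSCG00000029558), was close to 0 in the CD146+ cells. It was at 39.6, 12.3 and 39.8 in ITGA4+BMPR1B+, at 24.5, 7.06 and 10.1 in ITGA4+BMPR1B-, at 21.6, 39.0 and 45.3 in ITGA4-BMPR1B+, and at 11.9, 20.7 and 23.6 in ITGA4-BMPR1B- libraries, against 0, 0.0956 and 0.137 in CD146+ libraries. The difference was 4.37 (SE 0.25, adjusted p = 0.000108). EXTL2, which can cap the linker, was at 5.37 to 9.31 in chondrocytes and 1.85 to 3.88 in CD146+ cells (1.03, SE 0.28, adjusted p = 0.0302), and lost its call without any 1 of the 5 pigs and with equal totals (adjusted p up to 0.112). EXTL3, which starts heparan sulfate chains, was too low to test, at 2.50 to 4.63 in chondrocytes and 4.72 to 11.1 in CD146+ cells.

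Of the 7 heparan sulfate modification genes 3 were tested. HS3ST3B1, one of the 3-O-sulfotransferases that add the last and rarest sulfate, was at 5.69, 7.44 and 11.1 (lowest, median and highest) in chondrocytes, against 0.837, 0.264 and 0.348 in CD146+ cells. The ranges were well apart (2.53, SE 0.29, adjusted p = 0.00138). Its near relative HS3ST3A1 was below the level needed for a test, at 1.85 to 4.26 in chondrocytes and 0 to 0.209 in CD146+ cells. HS3ST1, another 3-O-sulfotransferase, ran from 0 to 63.1 in chondrocytes and was at 61.2, 7.70 and 14.9 in CD146+ cells, so no difference could be read (-0.23, SE 1.01, adjusted p = 0.879). HS6ST1, a 6-O-sulfotransferase, was at 2.66 to 7.59 in chondrocytes and 6.12 to 6.78 in CD146+ cells (-0.24, SE 0.19, adjusted p = 0.363).

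Both members that sulfate keratan sulfate and related N-acetyllactosamine chains were lower in chondrocytes, with the largest estimated differences of all members. CHST1, which sulfates the galactose of keratan sulfate (ENSSSCG00000013273), was at 0, 12.3 and 40.2 in the ITGA4+BMPR1B+ libraries of pigs 2, 5 and 6, at 3.72, 0 and 18.7 in ITGA4+BMPR1B-, at 2.16, 22.3 and 57.3 in ITGA4-BMPR1B+, and at 0, 6.33 and 9.89 in ITGA4-BMPR1B-. The CD146+ libraries had 538, 1729.7 and 131. Despite a wide spread on both sides the ranges did not meet (-6.12, SE 1.21, adjusted p = 0.0105). CHST2, which sulfates N-acetylglucosamine (ENSSSCG00000022031), was at 0, 1.78 and 13.6 (lowest, median and highest) in chondrocytes, against 174, 178 and 72.3 in CD146+ cells (-5.50, SE 0.56, adjusted p = 0.000926). Keratan sulfate is an abundant chain of aggrecan, whose transcript ACAN was at 1440 to 3467 in chondrocytes and 1.53 to 3.94 in CD146+ cells. CHST1 and CHST2 are the only members of this group, and keratan sulfate itself was not measured, so its sulfation cannot be read from them.

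Among the 5 members of the galactosyltransferase family that act mainly on N-glycans and glycolipids, 4 were tested and 1 passed. B4GALT5, a lactosylceramide synthase, was at 5.75, 8.16 and 13.4 (lowest, median and highest) in chondrocytes, against 56.7, 45.3 and 45.5 in CD146+ cells. These ranges lay far apart (-2.43, SE 0.18, adjusted p = 0.000299). B4GALT2 and B4GALT3 differed by 0.02 (SE 0.31) and 0.01 (SE 0.21), and B4GALT1, the main N-glycan galactosyltransferase, by 0.56 (SE 0.38, adjusted p = 0.293). With pig as a block B4GALT1 was higher in chondrocytes (0.95, SE 0.21, adjusted p = 0.00904). In that fit, which called 20 members against 34% of all genes, only pig 5 compares the tissues within an animal. The endothelial sums given above and the 4 genes that were lower in chondrocytes are both high in CD146+ cells, as holds for any gene called lower. The part of endothelial cells in these 4 was not tested.

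CHST10, the sulfotransferase that completes the HNK-1 carbohydrate epitope, was at 38.7, 23.0 and 28.3 in ITGA4+BMPR1B+, at 41.4, 26.8 and 25.5 in ITGA4+BMPR1B-, at 59.6, 37.6 and 31.5 in ITGA4-BMPR1B+, and at 56.7, 37.2 and 29.6 in ITGA4-BMPR1B- libraries, against 2.73, 3.14 and 3.55 in CD146+ libraries. All 12 chondrocyte values lay above the CD146+ values (3.12, SE 0.24, adjusted p = 0.000344). The 2 glucuronyltransferases that make the sugar it sulfates, B3GAT1 and B3GAT2, were at 0.203 or less and 0.684 or less in every chondrocyte library, under the level needed for a test. UGDH, the enzyme that makes the UDP-glucuronic acid used by chondroitin, heparan sulfate and hyaluronan alike, was at 50.4 to 152 in chondrocytes and 36.7 to 44.1 in CD146+ cells (1.07, SE 0.28, adjusted p = 0.0268). The UGDH call was lost without pig 2, 3, 4 or 5, without any 1 CD146+ library and with equal totals (adjusted p up to 0.154).

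**Figure D3:**
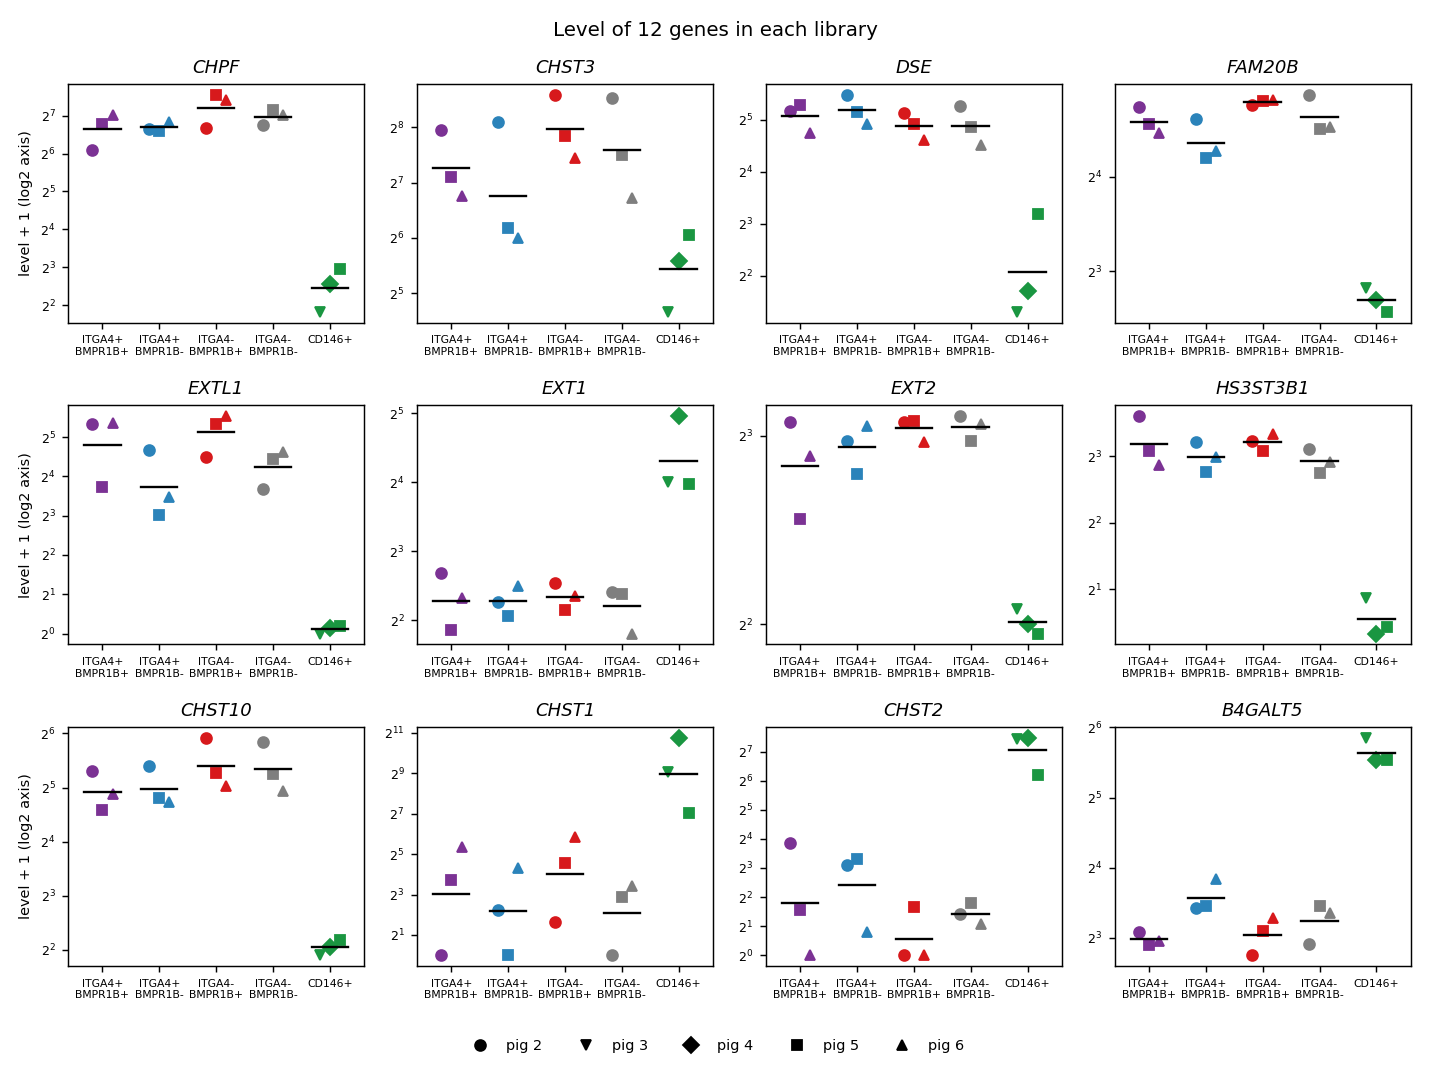
Level + 1 on a log2 axis of 12 members in every library, by population with CD146+ cells on the right, the marker shape giving the pig and the bar the geometric mean of level + 1 over the 3 libraries. CHPF, EXTL1, HS3ST3B1 and CHST10 are higher in all 12 chondrocyte libraries than in any CD146+ library, and EXT1, CHST1, CHST2 and B4GALT5 lower; CHST3 overlaps.

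The members not tested numbered 14: CHST7, CHST11, CHST13, EXTL3, HS3ST2, HS3ST3A1, HS6ST2, NDST3, B4GALT6, B3GAT1, B3GAT2, CHST8, CHST9 and HAS1. CHST11, the chondroitin 4-O-sulfotransferase, was at 0 to 4.16 in chondrocytes and at 3.69, 0 and 3.30 in CD146+ cells, so the transcript was barely measured in either tissue. HAS1, a hyaluronan synthase, was at 0 to 5.19 in chondrocytes and 2.45 to 4.46 in CD146+ cells. Of the 14, 3 lay above the CD146+ range in every chondrocyte library (HS3ST3A1, HS6ST2 and B4GALT6) and 2 below it (CHST7 and EXTL3). EXTL3 exceeded 5 in 2 CD146+ libraries, HAS1 in 1 ITGA4-BMPR1B- library, and the others of the 14 in no library. HS6ST2 was at 0.177 or less throughout. The share of all untested genes without overlap was not computed, so nothing is read from these counts.

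Each chondrocyte population was also set against the CD146+ cells on its own. These 4 comparisons share the CD146+ libraries, so their calls are given side by side and not as separate evidence. Of 30 members, ITGA4+BMPR1B+ cells had 14 higher and 5 lower (18% and 17.9% of all genes), ITGA4+BMPR1B- cells 12 and 5 (16.2% and 15.5%), ITGA4-BMPR1B+ cells 17 and 4 (18.6% and 17.9%), and ITGA4-BMPR1B- cells 14 and 5 (17.5% and 15.6%). The same 11 members were higher in all 4, namely B3GAT3, FAM20B, CHPF, CSGALNACT2, CHST14, DSE, EXT2, EXTL1, EXTL2, HS3ST3B1 and CHST10, and the same 4 were lower, namely EXT1, CHST1, CHST2 and B4GALT5. With equal totals the higher and lower counts in the same order of populations were 9 and 7 (11.8% and 28.9% of all genes), 10 and 6 (10.6% and 28.3%), 11 and 7 (10.5% and 35.3%), and 11 and 6 (11.6% and 26.7%). On the signal as deposited they were 1 and 2 (3.11% and 1.45%), 1 and 2 (2.61% and 1.18%), 1 and 2 (1.6% and 1.59%), and 0 and 2 (0.936% and 1.52%).

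The 8 members called in only 1 to 3 of the populations had small or variable differences. B4GALT7 passed in ITGA4+BMPR1B+ (0.61, SE 0.20, adjusted p = 0.0329) and ITGA4-BMPR1B+ cells (0.62, adjusted p = 0.0298), the 2 BMPR1B+ populations, against 0.15 and 0.25 in the BMPR1B- populations. CHST15 passed as lower in the 2 BMPR1B- populations, ITGA4+BMPR1B- (-1.75, adjusted p = 0.0117) and ITGA4-BMPR1B- cells (-1.70, adjusted p = 0.0128), against -0.97 and -0.87 in the BMPR1B+ populations. CHST3 and UGDH were called in all but the ITGA4+BMPR1B- cells, and XYLT2 in all but the ITGA4+BMPR1B+ cells. CHPF2 (0.90, adjusted p = 0.0499) and CSGALNACT1 (0.99, adjusted p = 0.0313) were called in ITGA4-BMPR1B+ cells alone, and HS6ST1 in ITGA4+BMPR1B+ cells alone, as lower (-0.63, adjusted p = 0.0319). In the 20 settings that left out 1 library or pig, the CHPF2 call was lost in 17, and its value was 0.53 without the ITGA4-BMPR1B+ library of pig 5. The UGDH call was lost in 15 in ITGA4-BMPR1B- cells, in 8 in ITGA4+BMPR1B+ cells, where its value was 0.77 without pig 5, and in 7 in ITGA4-BMPR1B+ cells. The other calls of these 8 members were lost in 1 to 9 settings each. A pseudocount of 5, the open filter and a prior without trend each also ended CHPF2 (adjusted p up to 0.0619) and UGDH in ITGA4-BMPR1B- cells (up to 0.0638). Differences between populations in these calls were not tested here beyond the sort-marker comparisons that follow.

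With pig as a block, 15, 16, 18 and 19 members passed in the same order of populations, against 32%, 28.8%, 32.9% and 29.3% of all genes. The calls of B4GALT7, CHST15, CHPF2, CSGALNACT1 and HS6ST1 in single populations were all lost in this fit, at adjusted p-values of 0.152 and 0.144, 0.411 and 0.468, 0.111, 0.0702 and 0.285. The block also removed CHST3 (0.0646) and CHST1 (0.0705) in ITGA4+BMPR1B+ cells, CHST2 (0.0610) in ITGA4+BMPR1B-, CHST1 (0.154) in ITGA4-BMPR1B+, and EXTL2 in all but the ITGA4+BMPR1B+ cells (0.0541, 0.0537 and 0.0730). It added B4GALT1 in 3 populations, CHST12 in the 2 ITGA4- populations and UGDH in ITGA4+BMPR1B- cells. Leaving out pig 5 brought the count in ITGA4-BMPR1B+ cells to 13. Of the 15 members called in all 4 populations, 12 kept every call whichever library or pig was left out, and B3GAT3, EXTL2 and CHST1 lost at least 1.

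Within cartilage, the first question was whether BMPR1B+ chondrocytes differ from BMPR1B- chondrocytes in these enzymes. None of the 30 members passed in limma, against 0.211% of all genes (21 of 9963), and 6 members had an unadjusted p under 0.05, as did 985 genes in all. With pig as a block, again 0 members passed, against 2.65% of all genes, and 8 members had an unadjusted p under 0.05, as did 1830 genes in all. The member differences ran from -0.73 to 1.39 with a median of 0.07 and a median SE of 0.21, so small differences could not be resolved.

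CHST15 had the smallest adjusted p of the members in the fit without the block. It was at 14.9, 14.7 and 8.18 in ITGA4+BMPR1B+ and 12.2, 14.95 and 12.2 in ITGA4-BMPR1B+ libraries of pigs 2, 5 and 6, against 11.8, 5.14 and 4.76 in ITGA4+BMPR1B- and 7.76, 7.67 and 5.58 in ITGA4-BMPR1B- libraries. Within pigs 2, 5 and 6 the BMPR1B+ minus BMPR1B- differences were 0.45, 1.12 and 0.84. The mean was 0.80 (SE 0.23, adjusted p = 0.239, and 0.0653 with pig as a block). B4GALT1 ran the other way in all 3 pigs, at -0.40, -0.59 and -0.43 (mean -0.48, adjusted p = 0.483, and 0.0624 with the block). EXTL1 was 0.74, 0.80 and 1.39 higher in the BMPR1B+ cells of pigs 2, 5 and 6 (mean 0.98, SE 0.38, adjusted p = 0.427), and B4GALT7 0.23, 0.54 and 0.47 (mean 0.41, SE 0.15, adjusted p = 0.371). In all, 8 members were higher in BMPR1B+ cells of all 3 pigs and 5 were lower, against 19.3% and 21.7% of all genes.

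**Figure D4:**
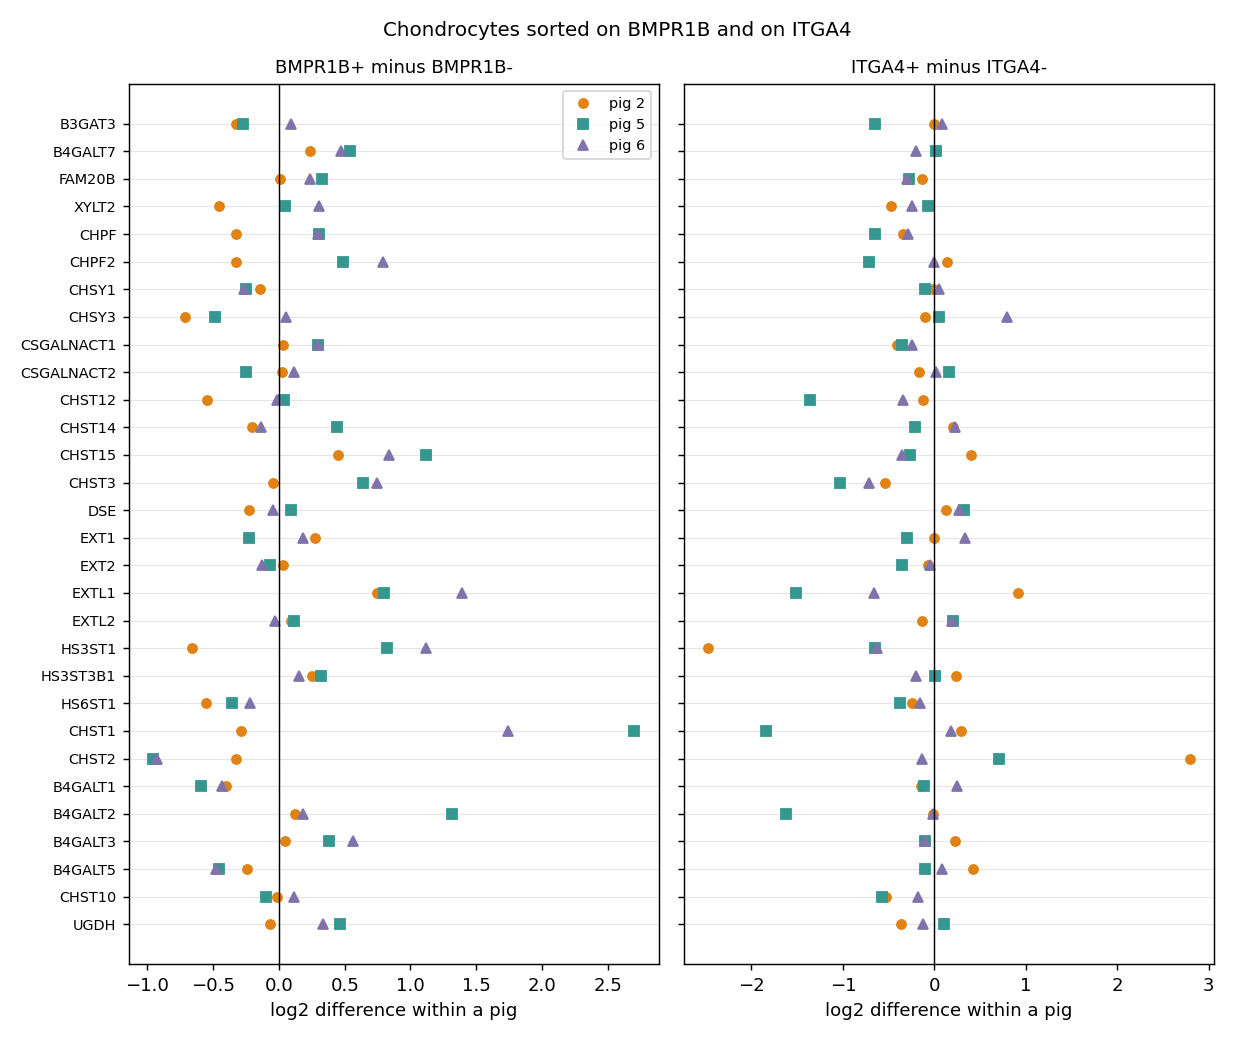
Log2 difference within each of pigs 2, 5 and 6 for the 30 tested members, BMPR1B+ minus BMPR1B- cells (left panel) and ITGA4+ minus ITGA4- cells (right panel), with 1 marker per pig. Most markers lie close to 0, CHST15, EXTL1 and B4GALT7 lie above 0 and B4GALT1 below 0 in all 3 pigs on the left, and CHST3, CHST10 and CHPF lie below 0 in all 3 pigs on the right.

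The second sort marker was compared in the same way. Between ITGA4+ and ITGA4- chondrocytes no member passed in limma, against 0.01% of all genes (1 of 9963), and 0 members but 566 genes had an unadjusted p under 0.05. With pig as a block 0 members passed, again against 0.01% of all genes, and 8 had an unadjusted p under 0.05, as did 1184 genes in all. On the signal as deposited, 0 of 24 members passed without the block, but with it 10 were called, all higher in ITGA4+ cells, against 49.5% of all genes. The median difference over members was -0.14, against -0.02 over all genes. It was -0.05 against 0.06 with equal totals and turned to 0.22 against 0.32 on the signal as deposited, so its direction depends on the scale. On the main scale 11 members were lower in ITGA4+ cells of all 3 pigs and 1 was higher, against 17% and 14.6% of all genes.

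CHST3 was at 246, 136 and 108 in ITGA4+BMPR1B+ and 274, 71.6 and 62.6 in ITGA4+BMPR1B- libraries of pigs 2, 5 and 6, against 386, 230.0 and 173 in ITGA4-BMPR1B+ and 369, 179 and 105 in ITGA4-BMPR1B- libraries. The groups overlapped, while within pigs 2, 5 and 6 the ITGA4+ minus ITGA4- differences were -0.54, -1.03 and -0.71 (mean -0.76, SE 0.44, adjusted p = 0.905, and 0.196 with the block). CHST10 differed by -0.53, -0.57 and -0.18 (mean -0.43, adjusted p = 0.890) and CHPF by -0.34, -0.65 and -0.28 (mean -0.43, adjusted p = 0.872). DSE was the member higher in all 3, by 0.13, 0.33 and 0.27. None of these passed the adjustment in either fit. Whether the effect of one marker depended on the other was tested as an interaction: 0 members passed in limma, against 0.01% of all genes (1 of 9963), and 0 members but 174 genes had an unadjusted p under 0.05.

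Pig 2 stood apart from pigs 5 and 6 for several members. It is the animal whose chondrocyte libraries had the lowest messenger share. In all 4 populations of pig 2, 6 of the 30 members were above every library of pigs 5 and 6 and 1 was below, against 4.93% and 4.65% of all genes. CHST3 was at 246 to 386 in pig 2 and 62.6 to 230.0 in pigs 5 and 6, and CHSY3 at 47.8 to 84.9 and 13.9 to 38.8. CHSY1, CSGALNACT1, CSGALNACT2 and CHST10 were the other 4 above. HS3ST1 was below, at 0 to 13.1 in pig 2 and 18.2 to 63.1 in the others. The part of the messenger share in these differences between animals was not tested.

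The genes around the chain enzymes were described from lists of their own, again as chondrocytes against CD146+ cells, with the background shares given above. Of 14 tested genes that supply sugar nucleotides and active sulfate, 10 were higher and 0 lower, with a median difference of 1.64. PAPSS2, which makes the sulfate donor PAPS, differed by 4.44 (SE 0.53, adjusted p = 0.00161), the sulfate transporter SLC26A2 by 2.85 (adjusted p = 0.00118), the nucleotide-sugar transporter SLC35D1 by 2.41 (adjusted p = 0.00117), and UXS1, which makes UDP-xylose, by 1.82 (adjusted p = 0.00156). Of 5 other tested chain genes 3 were higher: PXYLP1, the phosphatase that removes the FAM20B phosphate (5.78, adjusted p = 5.60e-05), SULF1, which removes 6-O-sulfates from heparan sulfate outside the cell (3.11, adjusted p = 0.000711), and B3GNT2, a poly-N-acetyllactosamine synthase (1.04, adjusted p = 0.0400).

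Of 27 tested core proteins 14 were higher and 3 lower, with a median of 1.83. With pig as a block, which leaves only the CD146+ library of pig 5 to compare with, the median was 0.39. The aggrecan gene ACAN differed by 9.48, the collagen COL9A2 by 8.21, PRELP by 8.01 and CSPG4 by 7.88, while COL18A1 (-3.01), the intracellular proteoglycan SRGN (-2.46) and the testican SPOCK2 (-4.56) were lower. Of 16 tested degradation genes 2 were higher and 4 lower, with a median of -0.08. HYAL2, a hyaluronidase, was lower (-2.74, SE 0.40, adjusted p = 0.00321), as were GLB1, a lysosomal galactosidase (-0.63, adjusted p = 0.0435), and the entries for CEMIP2 (-1.60) and TMEM2 (-1.41), which are 2 names of 1 hyaluronidase. GUSB (1.19, adjusted p = 0.0171) and HYAL3 (1.05, adjusted p = 0.0427) were higher. In the fit with pig as a block the calls of GUSB, HYAL3, GLB1 and SRGN were lost. There GUSB differed by 0.73, HYAL3 by 1.39 and GLB1 by -0.60. No gene of these 4 lists passed in the BMPR1B, ITGA4 or interaction comparison without the block. With the block, BMPR1B+ cells had more PAPSS2 (0.51, SE 0.10, adjusted p = 0.0381), SDC2 (0.95, adjusted p = 0.0299) and GPC1 (0.67, adjusted p = 0.0459), and less OGN (-1.76, adjusted p = 0.0398) and CEMIP (-2.25, adjusted p = 0.0204).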

How the data were processed

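RNA was extracted from sorted cells (Qiagen Micro kit), made into NuGen Ovation SoLo libraries and sequenced paired-end on an Illumina HiSeq. Per the study's methods, reads were aligned to the Ensembl 84 pig reference with STAR and quantified with Partek E/M; their versions and how values were normalized are not stated there. The deposited values are a signal with equal totals per library, so they hold no read depth (the study's read totals were not used here), and whether they are per transcript length is not given, so levels were not compared between genes. Structural (1119) and mitochondrial (37) rows were removed, libraries were scaled by median ratios over 11302 genes, and the 9963 genes that exceeded 5 in 3 or more libraries were analysed as log2(level + 1) with limma 3.58.1 in R 4.3.3, with Benjamini-Hochberg adjustment and a threshold of 0.05. Chondrocytes as a whole were compared as pig means, single populations in 1 fit over 15 libraries, and the sort markers in the 12 chondrocyte libraries. The labels number the pigs, so libraries of 1 number come from 1 animal, and a fit with pig as a block was the alternative. After the mean of each population was subtracted, all 12 chondrocyte libraries correlated best with a library of their own pig. The 18 same-pig correlations ran from 0.125 to 0.407, and the median between pigs was -0.214. Subtracting a mean of 3 libraries itself lowers correlations within a population. P-values of the pig-mean comparison measure the spread between animals. The single-population and sort-marker fits without the block treat libraries of the same pig as independent and leave the pairing unused. Fits with the block use the spread left within pigs. Against CD146+ cells they rest on the CD146+ library of pig 5 alone, so their SEs do not measure the spread between animals. Members past the threshold in either fit were named, with per-library values for those a result turns on, and up to 4 genes a direction from the other lists. Other alternatives were equal totals, the signal as deposited, pseudocounts of 0.5 and 5, 2 filters, a prior without trend and leaving out each library or pig. The script was tested on simulated data. The members and lists were chosen with earlier results of these data known.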

Additional observations from a re-analysis of the deposited data

How the results depend on the processing

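Of the 94 single-gene differences from CD146+ cells past the threshold, 0 changed direction in any setting that tested them; the filter above 10 in 6 libraries tested 62 and the fit on 15 single libraries 18. Equal totals ended 22 of them, the signal as deposited 54 of the 72 it could test, and leaving out pig 5 ended 29. On the signal as deposited the member counts were 7 for chondrocytes as a whole, 3 for ITGA4+BMPR1B+, 3 for ITGA4+BMPR1B-, 3 for ITGA4-BMPR1B+ and 2 for ITGA4-BMPR1B- cells. The median difference over all genes was then 0.59 for chondrocytes as a whole. A filter above 10 in 6 libraries, which tested 22 members, left 12 members in ITGA4+BMPR1B+ cells, and 11 members with ITGA4+BMPR1B- cells. Leaving out 1 library or pig gave 12 to 19 members for chondrocytes as a whole, 14 to 19 for ITGA4+BMPR1B+, 13 to 17 for ITGA4+BMPR1B-, 13 to 21 for ITGA4-BMPR1B+ and 15 to 19 for ITGA4-BMPR1B- cells, and 0 to 0 for BMPR1B, ITGA4 and their interaction. With the replicate block (pairing by pig) the counts were 0 for BMPR1B, ITGA4 and the interaction. Its comparisons with CD146+ cells rest on the CD146+ library of pig 5 alone, so no counts are given for them. The ITGA4 comparison with the block on the signal as deposited called 10 of 24 members, all higher, and 3507 of 7049 genes, so the members' share was below that of all genes. Structural and mitochondrial transcripts then stay in the total. Mitochondrial transcripts made up 18.4% to 35.1% of the signal in ITGA4+ libraries and 1.80% to 16.8% in ITGA4- libraries. Structural RNA made up 43.9% to 77.5% and 68.7% to 96.2%, and messenger transcripts 4.02% to 22.1% and 2.03% to 19.2%. In each pig both ITGA4+ libraries had a lower structural and a higher messenger share than both ITGA4- libraries. The part of these shares in that count was not tested. The values are not read counts, so no limit of detection is given for members listed at 0.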

Other observations

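Further genes of the same enzyme families carry no symbol of the list in the table and were named from their Ensembl identifiers after the table was seen, 9 in all (XYLT1, HAS2, NDST2, HS2ST1, UST, B4GALT4, CHST4, HS3ST5 and HS6ST3). Of these, 3 were high enough to test. HAS2, the hyaluronan synthase of most connective tissue cells, was at 5.65, 13.7 and 33.1 (lowest, median and highest) in chondrocytes, against 0, 0.0474 and 0.196 in the CD146+ libraries of pigs 3, 4 and 5 (log2 difference 3.89, SE 0.25, adjusted p = 0.000176). XYLT1, the other xylosyltransferase that starts the linker, was at 5.89 to 28.4 in chondrocytes and 0.228 to 1.09 in CD146+ cells (3.28, SE 0.35, adjusted p = 0.00109). NDST2, which removes acetyl groups from heparan sulfate and puts sulfate in their place, was lower in chondrocytes, at 17.2 to 34.1 against 30.5 to 43.8 in CD146+ cells (-0.73, SE 0.20, adjusted p = 0.0311).

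Within cartilage HAS2 was at 13.8 to 33.1 in the 6 BMPR1B+ libraries and 5.65 to 13.7 in the 6 BMPR1B- libraries. The ranges nearly met, at 13.79 in a library of pig 2 and 13.67 in one of pig 5. The share of all genes without overlap between these groups was not computed. The difference was 1.15 (SE 0.25, adjusted p = 0.133 in limma, and 0.0433 with pig as a block). The gene was singled out after its values were seen.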
